A study of Mus musculus with 7 samples.

Results

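Secreted and membrane proteins, the mucins and antimicrobial peptides of the gut among them, are held together by disulfide bonds between pairs of cysteines. The bonds are made in the endoplasmic reticulum (ER), where protein disulfide isomerases (PDIs) insert them into new chains and rearrange wrong ones, ERO1 enzymes re-oxidize the PDIs with oxygen, and chaperones such as BiP hold the chains while they fold. When folding falls behind, the unfolded protein response (UPR) raises the genes of this machinery through the sensors IRE1, PERK and ATF6, and IRE1 acts by splicing the mRNA of the transcription factor XBP1. Cystine, the amino acid lowered in the diet here, is the disulfide-linked form of cysteine.

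The 10 genes described were chosen by name as disulfide formation and ER folding genes, with earlier results of these data known. They are 10 of the 38293 genes listed. They are the disulfide isomerases P4hb, Pdia3, Pdia4, Pdia6 and Txndc5, the sulfhydryl oxidases Ero1l, Ero1lb and Qsox1, the chaperone gene Hspa5 and the transcription factor gene Xbp1. Each name belonged to 1 gene of the table, and all 10 genes had enough counts to be tested.

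Poly(A) RNA was sequenced from scrapings of the ileum, the last part of the small intestine, which took the epithelium and the lamina propria but left the muscle layer. The male C57BL/6NRJ mice were 8 weeks old and were housed individually. They received a purified high fat, low calcium AIN93G diet for 1 week before the intervention. For the next 2 weeks 4 of the sequenced mice stayed on the diet with normal cystine (normal cys, 0.38% total cystine) and 3 received the same diet with the added L-cystine replaced by alanine (low cys, 0.08%). All mice were fasted before sacrifice. No genotype beyond the strain and no sequencing batch was given, and each library is taken as 1 mouse.

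The libraries held between 14888760 and 22412703 counts, and expression varied by 25.5% between mice on the same diet beyond counting error (biological coefficient of variation). The defining enterocyte, goblet and Paneth cell markers were detected in every library, while pancreatic acinar markers were at or near 0, with a summed level of at most 0.136 CPM. The values below are CPM, counts scaled to the library size and TMM factors. The log2 fold changes are low cys minus normal cys, and p-values are from the quasi-likelihood F-test of edgeR over the 14869 genes with enough counts. In this test 0 genes (0%) had an adjusted p under 0.05, 817 (5.49%) had an unadjusted p under 0.05, and with DESeq2 16 genes (0.108% of 14855) had an adjusted p under 0.05.

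The first sequences show the parts of the messages that encode the reactive cysteines. In PDIs the working site is the motif Cys-Gly-His-Cys, in which the 2 cysteines pass a disulfide to the client protein. A search of GENCODE M21 coding sequences (GRCm38) found it in 37 of 21526 coding genes (0.172%), and 5 genes held it at least 2 times. These 5 were the PDI genes of the list, P4hb, Pdia3 and Pdia6 with 2 sites each and Pdia4 and Txndc5 with 3 each. Qsox1 held 1 site, and Ero1l, Ero1lb, Hspa5 and Xbp1 held none. The sites of P4hb, Pdia6 and Qsox1 are shown 5′ to 3′, with the cysteine codons in capitals, to show how alike they are between a major PDI, the PDI with the largest estimated difference between the diets and the oxidase that carries its own PDI-like site.
P4hb, codons 55 and 58: gccccgtggTGTggccacTGCaaagctctg
P4hb, codons 399 and 402: gccccttggTGTggtcacTGCaagcagcta
Pdia6, codons 60 and 63: gcaccatggTGTggtcacTGCcagaggtta
Pdia6, codons 195 and 198: gctccgtggTGTggacacTGCaaaaacctg
Qsox1, codons 73 and 76: gcctcctggTGTggccacTGCatcgccttc
The cysteine content of the encoded proteins differed widely. Cysteine codons made up 3.23% of the codons of Ero1l and 3.25% of those of Ero1lb, against a median of 2.13% over all coding genes. In Hspa5 they made up 0.305%, a share below which only 3.36% of coding genes lay, and in the PDI genes other than Txndc5 (2.88%) they made up between 0.936% and 1.58%.

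The second set shows the ER stress element, the promoter sequence through which ATF6 and XBP1 raise folding genes. It consists of CCAAT and CCACG with 9 bases between them, and was searched on both strands of the RefSeq promoter windows (GRCm38.p6, 250 bases before to 50 after each start). All 10 genes had a window. The element was found in Hspa5, Pdia6 and Ero1lb, that is 3 of the 10, and in 37 of 27025 genes overall (0.137%). The motif is in capitals with 5 bases on either side, read along the strand of the gene, so that it appears as its reverse complement in Ero1lb.
Hspa5, chr2:34772020-34772048: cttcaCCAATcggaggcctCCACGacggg
Pdia6, chr12:17266486-17266514: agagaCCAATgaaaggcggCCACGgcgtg
Ero1lb, chr13:12565677-12565705: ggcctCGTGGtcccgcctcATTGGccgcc
The element began 65 bases before the start in Hspa5, 98 in Pdia6 and 201 in Ero1lb. All 3 genes are on the plus strand, and in Hspa5 the element lies within an exon of the annotation used for counting, which begins earlier. The longer XBP1 site TGACGTGG was found in Txndc5 alone among the 10, against 0.714% of all genes. The short parts were common, CCAAT in 41.1%, CCACG in 35.5% and ACGTG in 21.8% of genes, and each of the longer motifs contains one of them. These matches describe the letters of the windows, and binding was not measured.

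For none of the 10 genes was a difference between the diets detected that exceeded the spread between mice. Their estimates were divided evenly, 5 higher and 5 lower on the low cys diet (48.8% of all tested genes were lower), and the median log2 fold change was 0.01, as it was over all genes tested (0.01). The counts were 0 of 10 with an adjusted p under 0.05 in edgeR and in DESeq2, and 0 of 10 with an unadjusted p under 0.05 in edgeR. In no gene did the libraries of the diets stay apart, while over all genes 3.51% lay wholly lower and 3.32% wholly higher on the low cys diet. The largest estimates were those of Ero1lb, at 0.76-fold (95% interval 0.56 to 1.02), and Pdia6, at 1.28-fold (0.87 to 1.87).

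**Figure D1:**
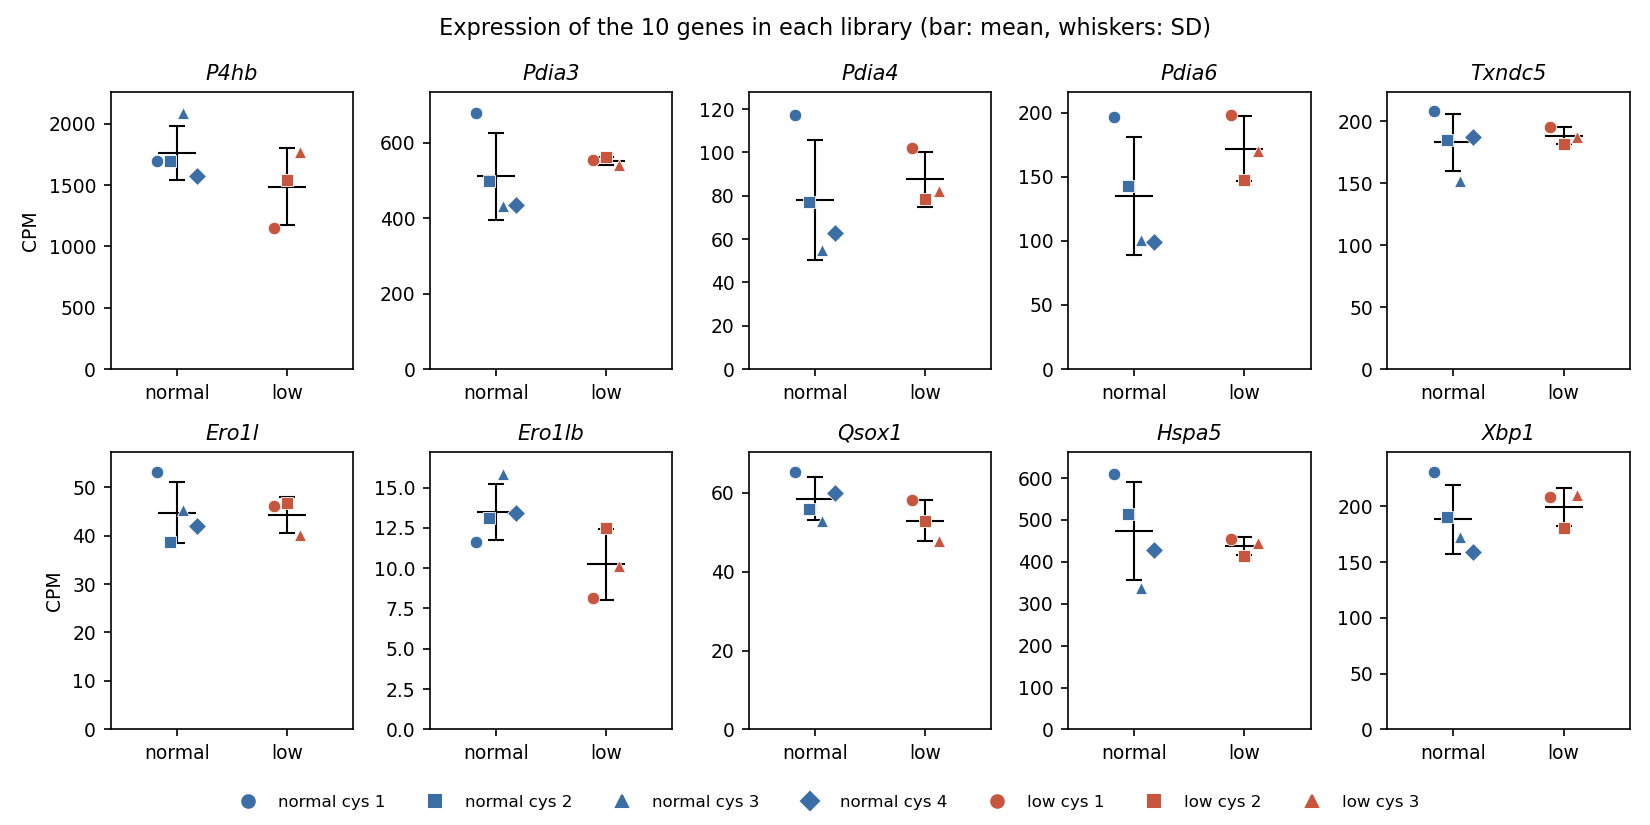
Expression of the 10 genes in CPM (vertical axes, linear from 0) in the 4 normal cys (blue) and 3 low cys (red) libraries, with a symbol per library and the mean and SD of each diet in black. The diets overlap in every panel, and normal cys 1 (blue circle) is the highest library in 7 of the 10.

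P4hb encodes the classical PDI, which is also a subunit of collagen prolyl hydroxylase and of the lipid transfer protein that loads chylomicrons. On GRCm38 the gene lies on chromosome 11 (- strand) from 120560298 to 120573253. It was the most highly expressed of the 10 per length, with 616 ± 77.4 CPM per kb (SD, n = 4) in normal cys and 520 ± 109 (SD, n = 3) in low cys mice, rank 110 among the genes tested. The normal cys libraries 1 to 4 had 1699, 1693, 2085 and 1578 CPM, and the low cys libraries 1 to 3 had 1150, 1544 and 1767 CPM. Low cys 1 and 2 were the lowest libraries, but low cys 3 lay above 3 of the normal cys libraries. In edgeR its log2 fold change was -0.25 (SE 0.19, edgeR adjusted p = 0.8). Without low cys 3 the remaining low cys libraries lay below every normal cys library, with a log2 fold change of -0.39. Without low cys 1 the log2 fold change was -0.08. Low cys 3 was the only low cys library above a normal cys library, so leaving it out separates the diets by construction.

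Pdia3 encodes ERp57, which works on glycoproteins together with calnexin and calreticulin. It is found on chromosome 2 (+ strand) from 121413775 to 121438687. The normal cys libraries had 680, 500, 432 and 434 CPM, and the low cys libraries 555, 562 and 541 CPM. The low cys values lay close together, between normal cys 1 above and the other normal cys libraries below. This gave a log2 fold change of 0.11 (SE 0.18, edgeR adjusted p = 0.873).

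Pdia4 encodes ERp72, a PDI with an additional thioredoxin-like domain. The gene lies on chromosome 6 (- strand) from 47796142 to 47813512. Its CPM was 117, 76.9, 54.8 and 63.0 in the normal cys libraries and 102, 78.6 and 82.3 in the low cys libraries. The spread over the normal cys mice was 2.14-fold, the widest of the 10 genes, and the low cys values again lay below normal cys 1 and above the rest. Between the diets the log2 fold change was 0.17 (SE 0.25, edgeR adjusted p = 0.862).

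Pdia6 encodes P5, a PDI that also acts on the UPR sensors. Its locus is on chromosome 12 (+ strand) from 17266545 to 17284770. Its CPM was 197, 143, 100 and 99.4 in the normal cys libraries and 199, 147 and 171 in the low cys libraries. Low cys 1 and normal cys 1 were nearly equal at the top, and normal cys 3 and 4 shared the lowest level. The mean was 135 ± 45.9 CPM (SD, n = 4) in normal cys and 172 ± 25.7 (SD, n = 3) in low cys mice, a log2 fold change of 0.35 (SE 0.25, 95% interval -0.20 to 0.91, edgeR adjusted p = 0.794). An exact permutation test (two-sided, over all 35 assignments of 7 libraries to groups of 4 and 3, smallest possible p 0.0286) gave p = 0.2.

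Txndc5 encodes ERp46, a PDI abundant in plasma cells and endothelium. The gene lies on chromosome 13 (- strand) from 38500273 to 38528824. It spread least of the PDI genes over the 7 libraries (1.37-fold), with 208, 185, 152 and 187 CPM in the normal cys libraries and 196, 182 and 188 CPM in the low cys libraries. All 3 low cys values lay inside the normal cys range. Its log2 fold change was 0.04 (SE 0.13, 95% interval -0.26 to 0.34, edgeR adjusted p = 0.942), and it was -0.04 without normal cys 3.

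The ERO1 enzymes supply the PDIs with disulfides. Ero1l encodes ERO1α, the widely expressed form, and Ero1lb encodes ERO1β, known from secretory cells such as those of the pancreas and stomach. Ero1l lies on chromosome 14 (- strand) from 45283092 to 45318572. It was expressed at 10.1 ± 1.41 CPM per kb (SD, n = 4) on the normal cys diet and Ero1lb at 3.19 ± 0.409 (SD, n = 4), so the level of Ero1l per length was above that of Ero1lb. In the normal cys libraries Ero1l had 53.2, 38.65, 45.2 and 41.9 CPM and in the low cys libraries 46.2, 46.7 and 40.0 CPM. The low cys values lay inside the normal cys range, with a log2 fold change of -0.01 (SE 0.14, 95% interval -0.33 to 0.30, edgeR adjusted p = 0.984), whose sign turned with upper-quartile factors (0.03).

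Ero1lb came closest to a difference. The annotation places it on chromosome 13 (+ strand) from 12565883 to 12609526. Its CPM was 11.7, 13.1, 15.8 and 13.4 in the normal cys libraries and 8.12, 12.5 and 10.1 in the low cys libraries. Low cys 1 and 3 were the lowest of all libraries, while low cys 2 lay above normal cys 1. The mean was 13.5 ± 1.73 CPM (SD, n = 4) in normal cys and 10.25 ± 2.19 (SD, n = 3) in low cys mice, a log2 fold change of -0.40 (SE 0.19, 95% interval -0.83 to 0.03). The edgeR adjusted p was 0.794, and the exact permutation test gave p = 0.0857. Without low cys 2 the diets did not overlap, with a log2 fold change of -0.54 (unadjusted edgeR p under 0.05). Without low cys 1 the log2 fold change was -0.24. Low cys 2 was the only low cys library above a normal cys library, so leaving it out separates the diets by construction. Without low cys 2, 6.3% of all genes had an unadjusted edgeR p under 0.05. Ero1lb was also the gene with the fewest counts, between 157 and 301 in a library. In annotated transcripts, 9.26% of its 50-base stretches occur in other genes too, against at most 1.37% in the other 9 genes.

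Qsox1 encodes a sulfhydryl oxidase that joins a PDI-like and an oxidase domain in 1 protein and acts in the Golgi and outside the cell. The gene lies on chromosome 1 (- strand) from 155778155 to 155812883. Its CPM was 65.4, 56.0, 52.9 and 59.9 in the normal cys libraries and 58.2, 52.9 and 47.75 in the low cys libraries. The lowest value was that of low cys 3, and the other low cys libraries lay inside the normal cys range. Low minus normal cys, the log2 fold change was -0.14 (SE 0.13, edgeR adjusted p = 0.804).

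Hspa5 encodes BiP, the main ER chaperone and the usual readout of the UPR. The gene lies on chromosome 2 (+ strand) from 34771970 to 34776531. Its CPM was 610, 515, 338 and 427 in the normal cys libraries and 454, 414 and 445.5 in the low cys libraries. The normal cys mice spread 1.81-fold, and all 3 low cys values lay inside that range. This amounted to a log2 fold change of -0.11 (SE 0.20, 95% interval -0.56 to 0.34, edgeR adjusted p = 0.887), and it was 0.04 without normal cys 1 and -0.25 without normal cys 3. Hspa5 ranked behind P4hb and Pdia3 per length, with 134.5 ± 33.3 CPM per kb (SD, n = 4) on the normal cys diet against 163 ± 37.1 (SD, n = 4) for Pdia3, which is within their spread.

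Xbp1 encodes the transcription factor that IRE1 activates by splicing, and secretory cells need it. The gene lies on chromosome 11 (+ strand) from 5520659 to 5525893. Its CPM was 231, 191, 173 and 159 in the normal cys libraries and 209, 180 and 210 in the low cys libraries. The low cys values lay inside the normal cys range. Its estimate was a log2 fold change of 0.09 (SE 0.15, edgeR adjusted p = 0.887). Gene counts do not separate spliced from unspliced Xbp1 mRNA, so its activation was not measured.

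Per length, the order of the levels on the normal cys diet went on with Xbp1 at 58.0, Txndc5 at 42.6, Pdia6 at 36.0, Pdia4 at 31.5, Ero1l at 10.1, Qsox1 at 9.51 and Ero1lb at 3.19 CPM per kb. The neighbours Txndc5, Pdia6 and Pdia4 lay within their spread of 5.402, 12.3 and 11.2 CPM per kb (SD, n = 4), as did Ero1l and Qsox1 within 1.41 and 0.877. The steps from P4hb to Pdia3, from Hspa5 to Xbp1, from Xbp1 to Txndc5, from Pdia4 to Ero1l and from Qsox1 to Ero1lb were larger than the SDs of both genes. These levels describe the scraping as a whole, in which fewer cells of a type and less RNA per cell cannot be told apart.

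**Figure D2:**
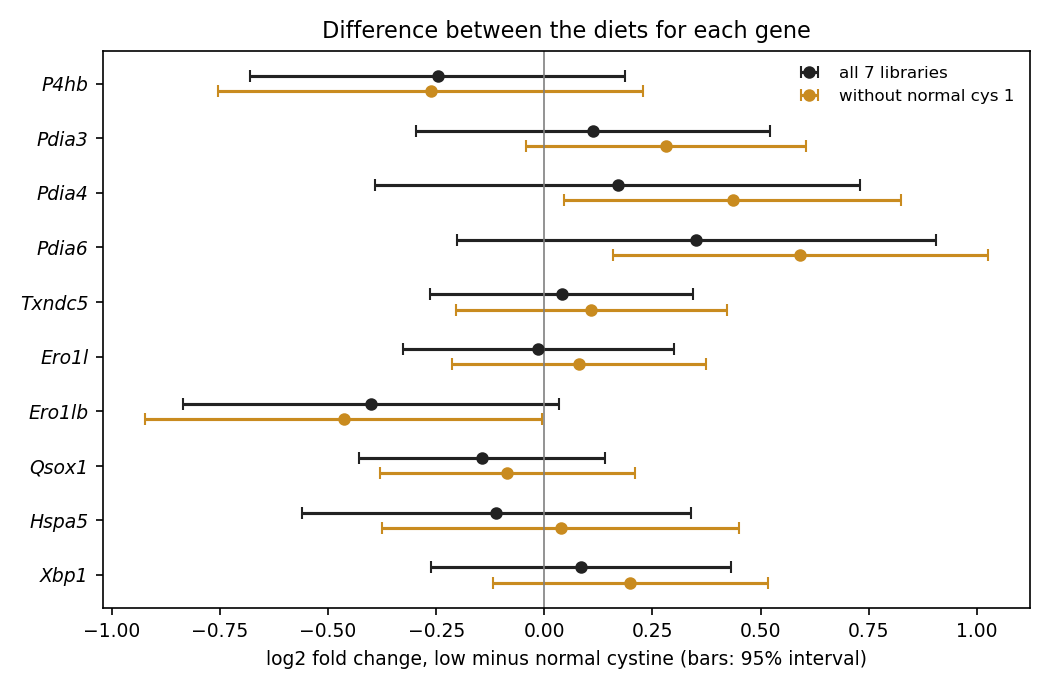
Log2 fold change of each gene (horizontal axis, low minus normal cys) with its 95% interval from edgeR, over all 7 libraries (black) and without normal cys 1 (ochre). All black intervals include 0, and without normal cys 1 those of Pdia4, Pdia6 and Ero1lb do not.

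In each of the 10 genes the highest and the lowest normal cys mouse differed by a larger fold than the diets did, and many of the genes varied together. Normal cys 1 was the highest library in 7 of the 10 genes (70%), against 13.2% of all genes tested, and lay 0.26 above the mean of all libraries in the median of the 10 genes on the log2 scale. Normal cys 3 was the lowest in 4, Pdia3, Pdia4, Txndc5 and Hspa5, and the highest in P4hb and Ero1lb. This library also had the largest share of mitochondrial counts, 10.98% against 6.08% to 8.43% in the other libraries, and a title of another form than theirs, and the part of either in its levels was not tested. On the same scale Pdia4 deviated from its mean by 0.55 in normal cys 1 and by -0.54 in normal cys 3. The low cys mice spread less in 7 of the 10 genes, which was no more than over all genes (73.2%).

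**Figure D3:**
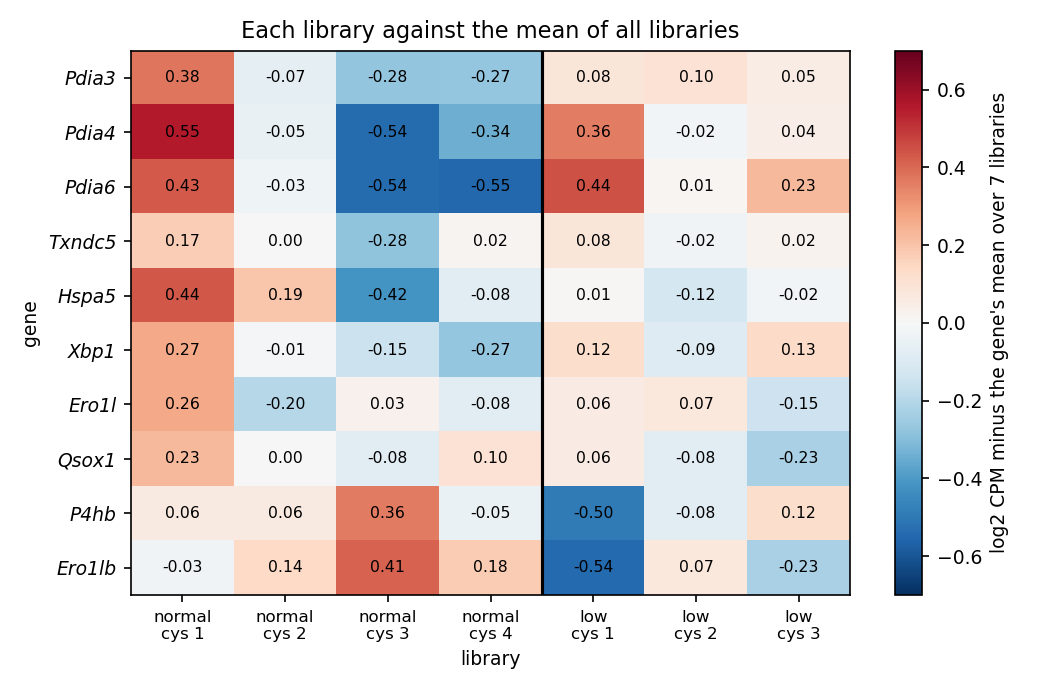
Log2 CPM of each gene minus its mean over the 7 libraries (colour and printed value), with normal cys libraries left and low cys libraries right of the line. In normal cys 1 all genes but P4hb (0.06) and Ero1lb (-0.03) are at least 0.17 above their mean, while in normal cys 3 P4hb and Ero1lb are 0.36 and 0.41 above theirs and most others are below.

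Over the 7 libraries, Pdia4 and Pdia6 had a Pearson r of 0.95, Pdia3 and Pdia4 0.94, Pdia6 and Xbp1 0.93, and Txndc5 and Hspa5 0.87. The Spearman rho of the first 3 pairs was 0.93, 0.89 and 0.86. These pairs had an r of 0.97, 0.81 and 0.86 without the 2 libraries farthest from the median of the first gene, while that of Txndc5 and Hspa5 went to 0.12 and so rested on those libraries. Ero1lb ran the other way, with an r of -0.82 to Pdia6 and -0.73 to Pdia4 (-0.73 and -0.90 without the 2 farthest libraries). Within the diets, after removal of each diet's mean, r was 0.97 for Pdia4 and Pdia6 and -0.74 for Pdia6 and Ero1lb. For P4hb, r was -0.52 to Pdia6 and -0.31 to Pdia3, and both turned positive (0.62 and 0.33) without the 2 farthest libraries. The points share library, depth and tissue make-up, n was 7, and these values are descriptions. The genes outside the list whose log2 CPM followed Hspa5 most closely over the 7 libraries were Dpp9 (r = 0.98), Acot11 (0.97), Psmd2 (0.97), Hyls1 (0.97) and 5830417I10Rik (0.96), none of which had an unadjusted edgeR p under 0.05.

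The RNA of cell type markers also differed between mice. Paneth cells, which secrete disulfide-rich defensins from the crypt base, were read from 7 markers, all 7 with a higher estimate on the low cys diet and none with an unadjusted edgeR p under 0.05. Their summed level was 5567, 2909, 2876 and 832 CPM in normal cys 1 to 4 and 5822, 3425 and 6192 CPM in low cys 1 to 3. The libraries with the most Paneth cell RNA, low cys 1, low cys 3 and normal cys 1, were also the highest in Pdia6, and normal cys 4 and 3 were the lowest in both. The 8 proliferation markers had a summed level between 129 and 347 CPM on the normal and between 219 and 389 CPM on the low cys diet, again highest in low cys 1, normal cys 1 and low cys 3, and all 8 estimates were higher on the low cys diet (0 with an unadjusted edgeR p under 0.05).

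Enterocyte markers showed the reverse. Their summed level over 11 genes was 28270, 31780, 49560 and 51870 CPM in the normal cys libraries and 14580, 28820 and 31150 CPM in the low cys libraries, with 10 of 11 estimates lower on the low cys diet and Apoa1 alone under an unadjusted edgeR p of 0.05. Ero1lb was highest in normal cys 3 and 4, the libraries with the highest enterocyte marker sum, and lowest in low cys 1, the library with the lowest. The most abundant markers weighed most in this sum, on the normal cys diet Fabp2 with 14500 ± 5595 and Apoa1 with 9406 ± 2734 CPM (SD, n = 4). Vil1 hardly varied over the same libraries, at 3672 ± 108 CPM (SD, n = 4), and Slc10a2 was the marker with a higher estimate (0.20). The sum is therefore not a measure of all enterocyte RNA. Goblet cell markers (8 genes) ranged from 11820 to 21810 CPM on the normal and from 11800 to 12710 CPM on the low cys diet, with 5 of 8 estimates lower. The highest goblet cell sum was that of normal cys 4, the lowest library for Pdia6 and Xbp1. The plasma cell list had 10 genes, of which Igj, Igha and Igkc lay higher in every low cys library, and its summed level was 454 to 1159 CPM on the normal and 1330 to 2036 CPM on the low cys diet. The 8 stroma markers ranged from 11.9 to 23.9 and from 24.6 to 34.6 CPM, and the 8 muscle markers from 3.06 to 14.2 and from 6.69 to 46.0 CPM. T cell (5 of 5) and tuft cell (3 of 3) marker estimates were lower, macrophage (5 of 5) and endothelial (4 of 4) estimates higher, and enteroendocrine estimates divided (3 of 5 higher). The part of these cell types in the levels of the 10 genes was not tested.

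**Figure D4:**
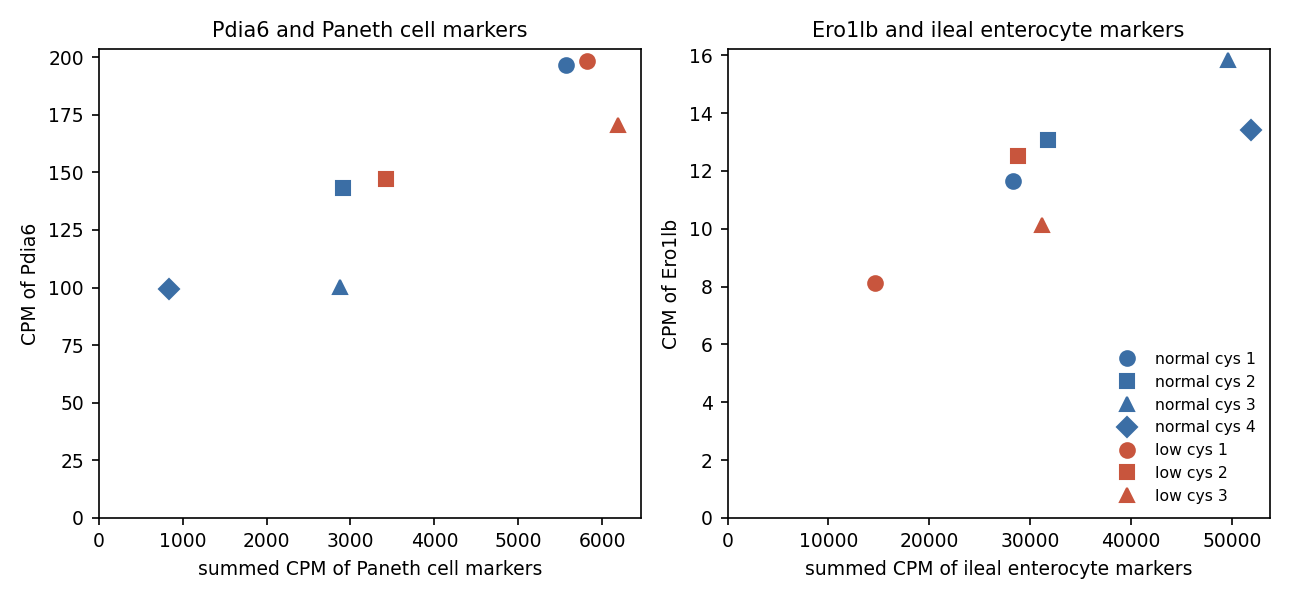
Left, Pdia6 (CPM) against the summed CPM of 7 Paneth cell markers, and right, Ero1lb (CPM) against the summed CPM of 11 enterocyte markers, with a symbol per library and normal cys in blue and low cys in red. The pairs were chosen after their values were seen, and each gene was lowest in the library with the lowest marker sum.

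Since normal cys 1 stood at the top for most of the genes, the comparison was repeated without it. Pdia6 then had a log2 fold change of 0.59 (SE 0.19, edgeR adjusted p = 0.379), Pdia4 0.44 (SE 0.17, edgeR adjusted p = 0.401) and Ero1lb -0.46 (SE 0.20, edgeR adjusted p = 0.415). That is 3 of the 10 genes with an unadjusted p under 0.05, where 11.9% of all genes had one without this library. Leaving out a normal cys library that is high for a gene raises its estimate by construction. Without normal cys 3, which was low for both, the log2 fold change was 0.23 for Pdia6 and 0.03 for Pdia4. For Ero1lb normal cys 1 was the lowest normal cys library, so leaving it out lowers that estimate by construction. Without normal cys 3, the highest library for Ero1lb, its log2 fold change was -0.32. Without normal cys 1 the diets no longer overlapped in 4 genes, with Pdia3, Pdia4 and Pdia6 higher and Ero1lb lower on the low cys diet, against 18% of all genes. None of the 10 had an adjusted p under 0.05. The Paneth cell, enterocyte, proliferation, macrophage, muscle and enteroendocrine marker sums of normal cys 1 lay inside the low cys range. Its goblet cell and T cell sums lay above that range, the T cell sum at 221 CPM against 81.4 to 127.5 CPM. Its plasma cell, tuft cell, stroma and endothelial sums lay below that range, the plasma cell sum at 1070 CPM against 1330 to 2036 CPM. The labels give no reason to leave out normal cys 1, so the comparison with all 7 libraries stands as the main one.

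The other genes of the pathway were taken from 6 lists. Of 117 listed genes 109 were tested, 4 had an unadjusted edgeR p under 0.05 (2.66% of all genes were higher and 2.83% lower at that threshold), and 0 had an adjusted p under 0.05. Among 13 tested genes of the wider PDI family, 9 estimates were higher and 4 lower, with a median log2 fold change of 0.12 and no unadjusted p under 0.05. The extremes were the membrane-bound thioredoxin Tmx4, with a log2 fold change of 0.59 (SE 0.33, edgeR adjusted p = 0.794), and Txndc12, with -0.07 (SE 0.14, edgeR adjusted p = 0.902). Tmx4 lay higher in every low cys library, at a level of only 1.90 ± 0.564 CPM (SD, n = 4) on the normal cys diet.

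Among 6 tested genes of other oxidases and ER redox enzymes, 4 estimates were higher and 2 lower (median 0.17), and none had an unadjusted p under 0.05. Qsox2, the sister gene of Qsox1, had the highest log2 fold change, 0.55 (SE 0.29, edgeR adjusted p = 0.794), and Gpx7, an ER peroxidase, the lowest, -0.72 (SE 0.42, edgeR adjusted p = 0.794). The selenoprotein gene Sep15 was at 108 CPM on both diets, and was named for its changed name in the table.

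Of 24 tested ER chaperones and folding factors, 16 estimates were higher and 8 lower (median 0.07), and 1 had an unadjusted p under 0.05. Serpinh1, which encodes the collagen chaperone HSP47, had 2.56, 0.636, 1.47 and 0.717 CPM in the normal cys libraries and 3.67, 2.94 and 3.29 CPM in the low cys libraries. It was higher in all 3 low cys libraries than in any normal cys library, with a log2 fold change of 1.30 (SE 0.47, edgeR adjusted p = 0.794). Serpinh1 is a gene of collagen-making cells, and the stroma marker sum was also higher in every low cys library. Whether stromal RNA sets its level was not tested.

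Of the 4 genes of the lists with an unadjusted edgeR p under 0.05, 3 were in UPR signalling. Of its 20 tested genes 7 estimates were higher and 13 lower (median -0.13). The 3 were 1 higher and 2 lower, where 5.49% of all genes had an unadjusted p under 0.05. Their number fell to 1 without normal cys 2 or without low cys 1. Trib3, a pseudokinase induced by ATF4 and CHOP, had 9.82, 18.8, 19.6 and 16.9 CPM in the normal cys libraries and 8.20, 10.1 and 9.80 CPM in the low cys libraries. Normal cys 1 alone of the normal cys libraries lay in the low cys range. The log2 fold change of Trib3 was -0.80 (SE 0.24, edgeR adjusted p = 0.794). Creb3l3, the membrane-bound transcription factor CREBH of hepatocytes and enterocytes, had 241, 392, 593 and 595 CPM against 135, 295 and 313 CPM. Its values followed the enterocyte marker sum, with the highest levels in normal cys 3 and 4 and the lowest in low cys 1, and its log2 fold change was -0.88 (SE 0.38, edgeR adjusted p = 0.794). The part of enterocyte RNA in it was not tested.

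Mbtps2, the site-2 protease that releases ATF6, had 7.37, 5.59, 7.41 and 6.83 CPM in the normal cys libraries and 10.2, 8.19 and 9.80 CPM in the low cys libraries. The low cys libraries were all higher, with a log2 fold change of 0.47 (SE 0.18, edgeR adjusted p = 0.794). Trib3 kept an unadjusted p under 0.05 with each library left out in turn. Serpinh1 lost it without low cys 1, Mbtps2 without normal cys 2, low cys 1 or low cys 3, and Creb3l3 without normal cys 2, 3 or 4 or without low cys 1 or 2, as well as with library size alone, with quality weights in limma-voom and with no filter. Without normal cys 1 there were 6 such UPR genes of 20, where the share over all genes also went up, from 5.49% to 11.9%. The 6 included Ern1, a gene of IRE1, with a log2 fold change of 0.49, and Ddit3, the gene of CHOP, with -0.81 (edgeR adjusted p = 0.373 for both). Ern2, the other IRE1 gene of the list, was not among them, with -0.05 (SE 0.19) without normal cys 1. Ern1, Ern2 and Ddit3 were named after their values were seen.

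ER-associated degradation (ERAD), which removes misfolded proteins, had 18 of 22 estimates lower on the low cys diet (48.8% over all genes) and a median of -0.10, with no unadjusted p under 0.05. The lowest was Sel1l, the scaffold of the ERAD ligase complex, at -0.21 (SE 0.13, edgeR adjusted p = 0.794), and the highest was Derl3 at 0.61 (SE 0.60, edgeR adjusted p = 0.821). In 2 ERAD genes, Os9 and Ubxn4, every low cys library lay below every normal cys library, with log2 fold changes of -0.21 and -0.17, where 3.51% of all genes lay wholly lower. These 2 were named after their values were seen. For translocation and N-glycosylation, which bring the chains into the ER, 16 of 24 estimates were higher and 8 lower (median 0.03), between 0.24 for Rpn1 (SE 0.22, edgeR adjusted p = 0.809) and -0.14 for Sec63 (SE 0.12, edgeR adjusted p = 0.804). None of the 24 had an unadjusted p under 0.05.

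**Figure D5:**
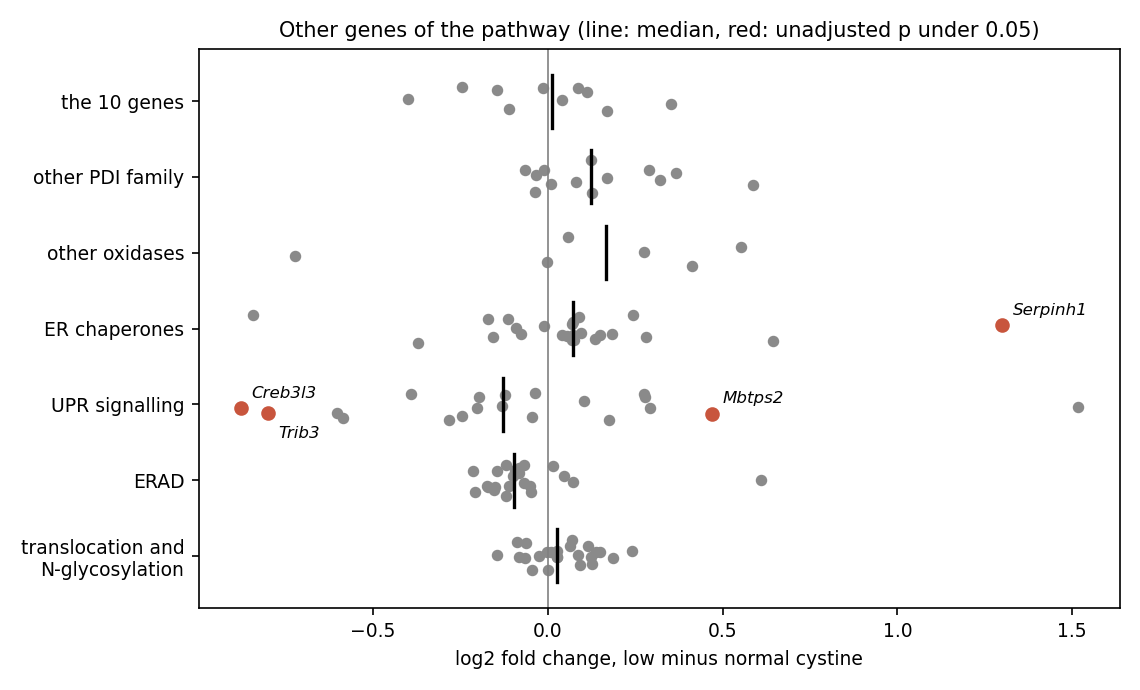
Log2 fold change (horizontal axis, low minus normal cys) of the tested genes of each list, with a point per gene, scattered vertically for legibility, and a black line at the list median. The 4 genes with an unadjusted edgeR p under 0.05 are red and named, and the medians lie between -0.13 for UPR signalling and 0.17 for the other oxidases.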

How the data were processed

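The authors deposited raw counts of reads on the exons of each gene, without normalization, for 7 ileal libraries. Per the labels and the paper's methods, stranded poly(A) libraries were trimmed with Trim Galore (0.6.5), aligned to GRCm38 with STAR and counted with featureCounts against Ensembl genes. The strand setting and the handling of multi-mapping reads are not given in the sources used here. Groups came from the treatment given for each sample, and count columns were matched to samples by the sample titles. Replicate numbers follow deposition order. No pair of libraries was identical.

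Genes were filtered with filterByExpr (minimum count 10, minimum total 15), which kept 14869, scaled with TMM factors and compared in edgeR 4.0.16 (R 4.3.3; robust quasi-likelihood fit, no covariate), with Benjamini-Hochberg adjustment over all genes tested. DESeq2 1.42.0 (the tool named by the study) and limma-voom (limma 3.58.1), other scalings and filters, and each library left out were the alternatives. Log2 CPM used a prior count of 2. CPM per kb used the deposited exonic length. For single values the exact permutation test was two-sided. The fits were tested on simulated data with known changes.

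The 10 genes and the lists were chosen with earlier results of these data known. Named genes were the 10, those of each pathway list with an unadjusted p under 0.05 (at most 4) or otherwise its extremes, the 5 most like Hspa5 and the marker genes. Sep15, Os9, Ubxn4, Ern1, Ern2 and Ddit3 fell outside this rule and were named after their values were seen. Sep15, Mzb1, Igha and Clca1 stand under other names in the table and were matched by identifier. Coding sequences came from GENCODE M21 in place of a protein table, and promoters from RefSeq. Exon overlap with other genes was at most 1.34% of the exonic bases of any of the 10. The p-values weigh the difference between the diets against the spread between these libraries. Depth gave at least 157 counts for each of the 10 genes in each library.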

Additional observations from a re-analysis of the deposited data

How the results depend on the processing

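With 16 alternatives, 0 of the 10 genes had an adjusted p under 0.05 in any, and the median log2 fold change over them moved by less than the spread between libraries (SD 0.276). The number with an unadjusted p under 0.05 was 1 with limma-voom (Ero1lb), 2 with quality weights (Pdia6 and Ero1lb), and 0 to 3 with libraries left out, and 0 in the others. The number not overlapping between the diets was 0 to 4 with libraries left out. With a library left out, the share of all genes not overlapping was counted only without normal cys 1 (18%). With library size alone 8 estimates were higher, but the median of all genes was then 0.15, and 5 of the 10 lay above it. Signs turned for Ero1l (0.0315 with upper-quartile factors, 0.134 with library size alone, -0.0617 to 0.0809 with libraries left out), Qsox1 (0.0026 with library size alone), Hspa5 (0.0249 with library size alone, 0.0226 with quality weights, -0.248 to 0.0374 with libraries left out) and Txndc5 (-0.0442 to 0.108 with libraries left out). Over all genes, an unadjusted p under 0.05 was found for 1850 with quality weights and for 258 to 1763 with libraries left out. An adjusted p under 0.05 was found for 16 with DESeq2, 4 with quality weights and 0 to 1 with libraries left out. This count over all genes was not among the planned ones. For the lists, the wider PDI family had 2 genes with an unadjusted p under 0.05 with library size alone, 2 with quality weights and 0 to 1 with libraries left out. The other oxidases had 1, 2 and 0 to 2. UPR signalling had 5 with quality weights and 1 to 6 with libraries left out, ER chaperones 0 to 3, ERAD 0 to 1 and translocation 0 to 2. The cause of these shifts was not tested. No paired analysis was possible because the labels give no replicate numbers that the diets share. With 3 and 4 mice the 95% intervals are wide, and that of Pdia6 does not exclude a 1.87-fold higher level in low cys mice.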

Other observations

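The table lists the selenoprotein gene Sep15 under a name changed to a date, and Vkorc1, the vitamin K epoxide reductase that can also pass disulfides to PDIs, had 0 counts in every library. All of its exonic bases (100%) are shared with other genes of the table on the same strand, so its 0 does not measure its expression.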
